A study of Mus musculus with 8 samples.

Results

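The genes described here are 37 mouse genes of early neurogenesis: proneural transcription factors, the ligands, receptors, modifiers and target repressors of the Notch pathway, and factors that mark neural progenitors or divide the neural tube into regions. They were listed by name for their known roles, with no threshold on any measured value, although earlier results of these data were known when the list was made. A probe was found for 35 of the 37, 1 probe each, among 13971 genes with a named probe, by matching the RefSeq accession of each probe to the gene. Jag1 and Sox3 had no matched probe and are not analysed here. Hes1 and Olig2 had a probe that was above background on 1 of 8 arrays each, so 33 genes were tested. Of these 33, 29 were above background on all 8 arrays.

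The embryos came from matings of mice with an allele of Ott1, now named Rbm15, that is expressed at a low level. RNA of 8 whole embryos at stage E11.5 was read on one-colour CodeLink oligonucleotide arrays, 1 embryo per array. Wild type were embryos 11 and 13, heterozygous for the allele were embryos 3, 10 and 15, and homozygous were embryos 2, 7 and 16. The series asked how the Rbm15 protein, which binds RNA and belongs to the Spen family, controls gene expression. The sources used here do not give strain, sex, litter or how far the allele lowers Rbm15, and no probe was matched to Rbm15 itself, so its level was not checked. RNA of a whole embryo pools every tissue, and for each gene below, fewer cells of a type and less RNA per cell cannot be told apart.

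Proneural factors are basic helix-loop-helix (bHLH) proteins that drive a progenitor to become a neuron. They switch on Delta ligands, which bind Notch receptors on the neighbouring cell. The receptor is then cut, and its inner part joins the DNA-binding protein RBPJ and turns on Hes and Hey repressors, which in turn hold down the proneural genes and keep that neighbour a progenitor. Around midgestation this exchange is at work throughout the mouse brain, spinal cord and sensory ganglia, and the same pathway acts in somites and in blood vessels.

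RBPJ recognises a short DNA word whose core is GTGGGAA. The promoters that hold it are shown because RBPJ is the DNA-binding partner of the Notch receptors of this list. Promoters came from RefSeq on GRCm38.p6, and the 250 bases before each start site were searched on both strands for these 7 letters. Of 31 members with a promoter in the table, which had 38 promoters, 3 held a match: Hes5, Lfng and Hey2. No promoter was given there for En2, Hes1, Msi1, Sox3, Mfng and Hey1, so these were not searched. The shares that follow count promoters, not genes. Across all 32851 promoters in the table, 5.42% held a match, and 0.161% held 2 or more, as Hes5 did. The 3 promoters printed here were the only ones with a match among the 38 of the members, and no excess is read from that number. Each promoter is printed 5′ to 3′ on the strand of its gene, with the matches in capitals (GTGGGAA, or TTCCCAC where the match lies on the opposite strand).
Hes5, chr4:154960673-154960922, plus strand: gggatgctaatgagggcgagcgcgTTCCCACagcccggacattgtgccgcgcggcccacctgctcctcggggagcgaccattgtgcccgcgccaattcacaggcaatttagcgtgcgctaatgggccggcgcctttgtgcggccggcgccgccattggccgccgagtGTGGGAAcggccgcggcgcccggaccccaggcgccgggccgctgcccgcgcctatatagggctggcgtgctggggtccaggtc
Lfng, chr5:140607091-140607340, plus strand: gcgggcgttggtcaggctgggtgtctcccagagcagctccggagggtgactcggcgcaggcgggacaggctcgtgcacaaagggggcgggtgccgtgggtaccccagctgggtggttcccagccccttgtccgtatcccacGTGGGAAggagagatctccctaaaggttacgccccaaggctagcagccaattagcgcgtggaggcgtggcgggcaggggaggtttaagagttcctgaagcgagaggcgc
Hey2, chr10:30842784-30843033, minus strand: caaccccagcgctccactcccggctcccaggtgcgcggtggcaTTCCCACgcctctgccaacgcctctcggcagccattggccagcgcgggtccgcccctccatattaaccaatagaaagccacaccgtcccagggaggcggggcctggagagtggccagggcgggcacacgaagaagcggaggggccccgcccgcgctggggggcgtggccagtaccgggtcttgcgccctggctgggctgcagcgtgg
The matches start 226 and 83 bases before the start site of Hes5, 109 bases before that of Lfng and 207 bases before that of Hey2. A match is a run of letters and was not read as a bound site.

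Levels below are log2 intensities after quantile normalization between the arrays, and a difference of 1 on this scale is a doubling. Levels of different probes are not set against each other. Means are over 2 wild type, 3 heterozygous, 3 homozygous or 5 wild type and heterozygous embryos, with the SD between embryos, unless a missing spot is named. The p-values are those of limma's moderated test, unadjusted or adjusted by Benjamini-Hochberg over the whole set of tested probes, as stated. They weigh a difference against the spread between single embryos of the same group, pooled over the groups of the fit.

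The array of homozygous embryo 16 stood apart from the others. Its median intensity before normalization was 87.93, against 61.45 and 61.52 in the other homozygous embryos and 48.28 to 57.63 in the wild type and heterozygous embryos. Its scanner file marked 1634 gene probes as faulty, against 206 to 616 on the other arrays, and placed 26619 above background, against 22526 to 23721. After normalization embryo 16 held the lowest value of all embryos for 36.7% of all tested probes and for 18 of the 33 members (54.5%). Each member's difference from the 5 other embryos is therefore also given without embryo 16.

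No member passed an adjusted p of 0.05 in any comparison: homozygous or heterozygous embryos against wild type, homozygous against heterozygous, or the 3 homozygous against the 5 other embryos. Among all tested probes, the share that passed was 0.0342% in homozygous against wild type, 0.0% in heterozygous against wild type, 0.0214% in homozygous against heterozygous and 0.107% in homozygous against the other embryos. With shares this low, a count of 0 among 33 genes says little about them. The lowest adjusted p of any member was 0.158, for En2. At an unadjusted p under 0.05, 9 of the 33 members (27.3%) stood out in homozygous against the other embryos. Of these, Jag2, En2 and Otx2 were higher in homozygous embryos (9.09% of members, 6.63% of all probes), and Neurod1, Neurod4, Mfng, Rfng, Gbx2 and En1 were lower (18.2%, against 13.4%). The counts were 4 members (12.1%, against 15.3% of all probes) in homozygous against wild type, 2 (6.06%, against 2.3%) in heterozygous against wild type and 4 (12.1%, against 11.6%) in homozygous against heterozygous. These comparisons share embryos and are not independent of each other.

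The members as a whole lay slightly lower in homozygous embryos. The median difference over the 33 members, homozygous minus the other embryos, was -0.14, against -0.06 over all tested probes, with 22 members (66.7%) below 0 where 60.2% of all probes were. Without embryo 16 the median was 0.03 for the members and -0.03 for all probes, and 17 members were above 0 and 16 below. Against wild type, the median was -0.21 in homozygous and -0.10 in heterozygous embryos, where all probes had medians of -0.07 and -0.01. Scaling moved the base line of every probe: the median of all probes was -0.06 after quantile normalization, -0.22 after median scaling, -0.25 in the authors' deposited values and -0.01 after cyclic loess. The members' median was then -0.26, -0.29 and -0.11 in the last 3 of these, below the median of all probes each time.

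**Figure D1:**
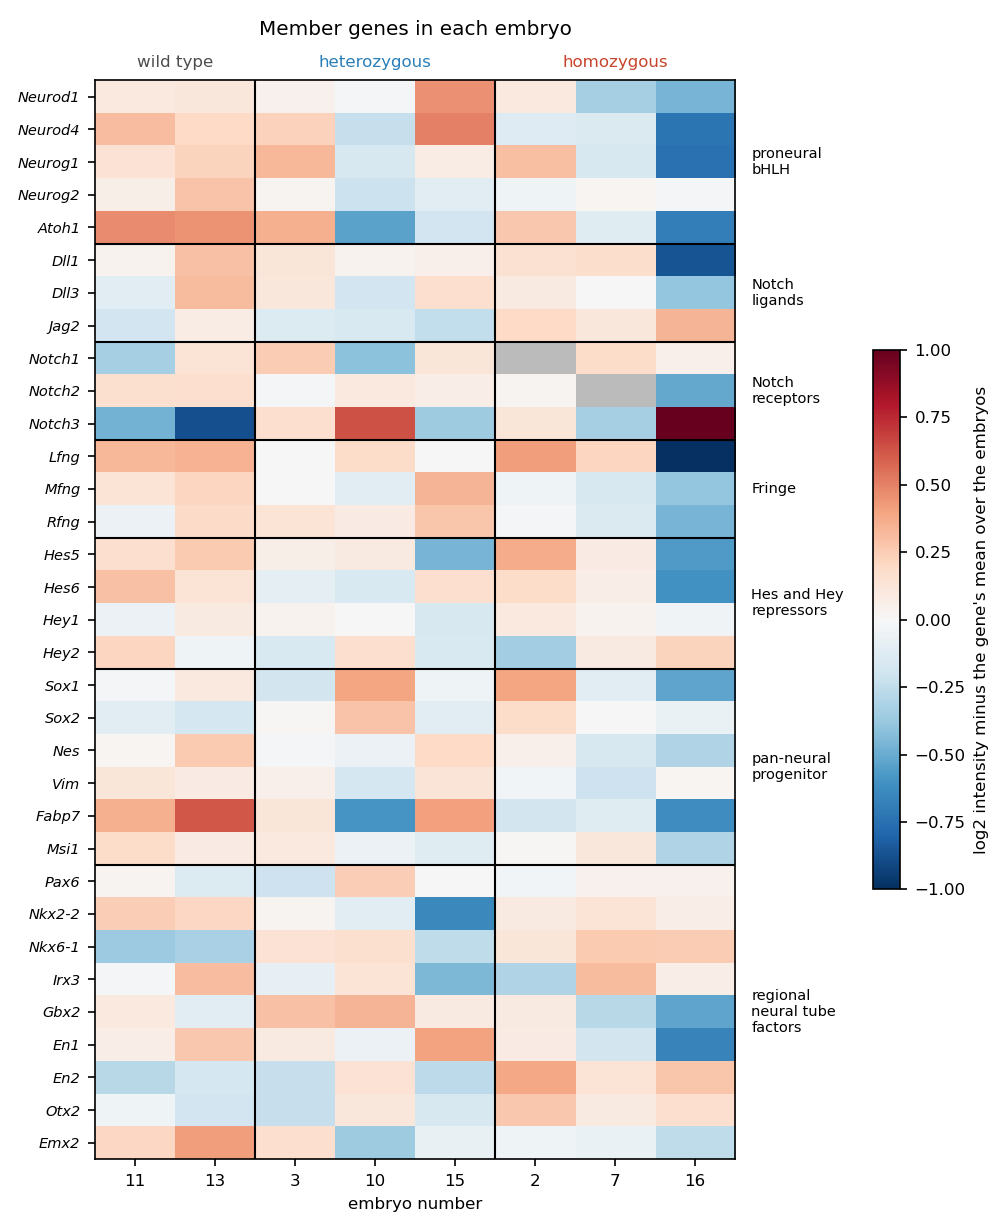
Each row is 1 of the 33 tested members and each column 1 embryo, and the colour is the log2 intensity minus the gene's mean over the embryos, with colours held at 1 and -1 and grey for a spot marked faulty. The column of embryo 16 is the darkest blue in most of the proneural, Fringe and Hes rows, while En2 and Otx2 are red in all 3 homozygous embryos.

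The 5 proneural genes had lower means in homozygous embryos, with a median difference of -0.32 that shrank to -0.05 without embryo 16. Under all scalings all 5 differences were below 0, apart from Neurog2, which was at 0.00 after cyclic loess. Neurod4 encodes a bHLH factor of early neuronal differentiation in brain, retina and placodes. Its log2 intensity was 8.40 and 8.29 in the wild type embryos, 8.32, 7.86 and 8.60 in the heterozygous and 7.96, 7.95 and 7.36 in the homozygous embryos. Only heterozygous embryo 10 overlapped the homozygous range, and embryo 16 lay well under the rest. The homozygous mean was 7.75 ± 0.34 and that of the other embryos 8.30 ± 0.27, a fold of 0.688. The log2 difference was -0.54 (SE 0.20, 95% interval -0.99 to -0.09, unadjusted p = 0.0231, adjusted p = 0.197), and -0.34 without embryo 16 (unadjusted p = 0.0974).

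Neurod1 acts in late neuronal differentiation in cranial and spinal sensory ganglia and in the forming pancreas. It measured 8.88 and 8.90 in wild type, 8.83, 8.77 and 9.24 in heterozygous and 8.88, 8.45 and 8.32 in homozygous embryos. Homozygous embryo 2 matched the wild type level, whereas embryos 7 and 16 lay below all 5 other embryos. The difference was -0.37 (SE 0.16, unadjusted p = 0.0421, adjusted p = 0.236), and -0.26 without embryo 16 (unadjusted p = 0.155). Heterozygous embryo 15 was the highest for both Neurod genes.

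The neurogenins, which act before the Neurod factors in the same cells, had no unadjusted p under 0.05 in any comparison. Whether they differed from the Neurod genes was not tested. Neurog1, the determination factor of cranial sensory neurons, differed by -0.32 (adjusted p = 0.429), with homozygous values of 8.87, 8.41 and 7.82 and other embryos between 8.41 and 8.90. Without embryo 16 its difference was -0.05. Neurog2, used in epibranchial ganglia, spinal cord and cortex, lay at 8.12 ± 0.03 in homozygous and 8.14 ± 0.19 in the other embryos, a difference of -0.03 (95% interval -0.30 to 0.25), and -0.03 without embryo 16. Atoh1, which specifies dorsal hindbrain and spinal interneurons and inner-ear hair cells, was 6.24 and 6.21 in wild type but ranged from 5.23 to 6.12 in heterozygous and from 5.07 to 6.03 in homozygous embryos. Its homozygous and heterozygous ranges overlapped almost fully, and its difference of -0.29 (adjusted p = 0.586) was -0.04 without embryo 16.

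Among the Notch ligands, only Jag2 had a difference above 0 with all 8 embryos in the fit. Jag2 encodes a Serrate-type ligand expressed in limb ectoderm, thymus, inner ear and parts of the spinal cord. Its log2 intensity was 6.40 and 6.67 in wild type, 6.46, 6.44 and 6.35 in heterozygous and 6.79, 6.71 and 6.93 in homozygous embryos. The 3 homozygous embryos all lay above the 5 others, with wild type embryo 13 the closest. Without overlap in that direction it was 1 of 33 members (3.03%, against 4.96% of all tested probes), and no member lay wholly below (0.0%, against 9.69%). Its homozygous mean was 6.81 ± 0.11, against 6.47 ± 0.12, a fold of 1.27 and a difference of 0.34 (SE 0.10, 95% interval 0.11 to 0.57, unadjusted p = 0.00878, adjusted p = 0.163). Without embryo 16 the difference was 0.28 (unadjusted p = 0.0304), and over 21 alternative settings it stayed between 0.22 and 0.42, never past the threshold.

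Dll1 is the ligand that proneural factors switch on in newborn neurons, and it is also needed for somite segmentation. It was 6.24 to 6.50 in the wild type and heterozygous embryos and 6.36, 6.38 and 5.34 in the homozygous. Its difference of -0.29 (adjusted p = 0.494) was 0.06 without embryo 16. Dll3, a divergent family member that acts inside the cell and in somite segmentation, measured 10.82 ± 0.25 in homozygous and 10.98 ± 0.21 in the other embryos. Its difference was -0.16 (adjusted p = 0.571), and -0.02 without embryo 16.

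The 3 receptors had few shared features. For Notch1, the main receptor of neural progenitors and endothelium, the spot of homozygous embryo 2 was marked faulty and left out. The remaining values were 9.06 and 9.53 in wild type, 9.64, 8.98 and 9.51 in heterozygous and 9.57 and 9.44 in homozygous embryos. All groups overlapped, and the difference of 0.16 (adjusted p = 0.681) was 0.22 without embryo 16 and -0.17 under median scaling. Notch2, a receptor of progenitors, kidney and vessel wall, lacked embryo 7 and measured 6.30 and 5.76 in homozygous embryos 2 and 16, against 6.26 to 6.44 in the others. Its difference was -0.34 (SE 0.15, adjusted p = 0.261), and -0.07 without embryo 16. Notch3, best known from vascular smooth muscle, was low and scattered, from 4.54 to 6.06 in the wild type and heterozygous embryos and from 5.09 to 6.54 in the homozygous. It was not above background in wild type embryo 13, and its difference of 0.48 had the widest standard error of the members (0.40). Embryo 16 held the highest Notch3 value, and without it the difference was 0.07. Homozygous minus wild type was 0.98 (unadjusted p = 0.0576), and 0.57 without embryo 16. Heterozygous minus wild type was 0.83 (unadjusted p = 0.0965). Notch3 passed the filter only through the heterozygous and homozygous embryos, where its means were higher. No conclusion is therefore drawn from any of its comparisons that include the wild type embryos.

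The Fringe enzymes add sugars to Notch receptors and so set which ligands a cell responds to. Mfng measured 8.25 and 8.33 in wild type, 8.12, 8.01 and 8.45 in heterozygous and 8.07, 7.95 and 7.73 in homozygous embryos. Its homozygous values overlapped the heterozygous through embryos 2 and 10, and all 3 lay below both wild type embryos. The difference from the 5 other embryos was -0.32 (SE 0.13, unadjusted p = 0.0346, adjusted p = 0.22), and -0.23 without embryo 16.

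Rfng showed nearly the same differences. Its values were 7.84 and 8.09 in wild type, 8.04, 7.98 and 8.18 in heterozygous and 7.88, 7.76 and 7.44 in homozygous embryos. Every homozygous embryo was below every heterozygous embryo, but embryo 2 was above wild type embryo 11. The difference was -0.33 (SE 0.13, unadjusted p = 0.0268, adjusted p = 0.204) against all 5 others, -0.37 (unadjusted p = 0.0365, adjusted p = 0.414) against the heterozygous embryos, and -0.21 against the 5 others without embryo 16. Lfng, whose oscillating expression times somite formation and whose promoter is printed above, was near background: above it in both wild type embryos, in none of the heterozygous and in homozygous embryo 2. It was tested only because both wild type embryos passed the filter. No conclusion is therefore drawn from any of its comparisons that include the wild type embryos, and the 5 other embryos include them. Its homozygous values were 4.81, 4.60 and 2.89, and the difference of -0.46 from the 5 others was 0.14 without embryo 16.

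The tested Hes and Hey genes had a median difference close to 0: -0.04 in homozygous minus the other embryos and 0.08 without embryo 16. The class includes Hes6, which opposes Hes1, so this median was not read as a measure of Notch activity. Hes5, whose promoter holds 2 RBPJ words, is the repressor most tied to Notch in neural progenitors. It measured 8.79 and 8.88 in wild type, 8.68, 8.71 and 8.15 in heterozygous and 8.99, 8.70 and 8.05 in homozygous embryos. Homozygous embryo 2 was the highest of all 8 and embryo 16 the lowest, so the groups overlapped fully. Its difference was -0.06 (SE 0.23, 95% interval -0.58 to 0.47), and 0.21 without embryo 16. With 8 arrays, true differences within that interval could not be told apart.

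Hes6, which opposes Hes1 and promotes neuronal differentiation, was 10.87 and 10.71 in wild type, 10.48, 10.42 and 10.74 in heterozygous and 10.76, 10.64 and 9.97 in homozygous embryos. Embryos 2 and 7 lay within the range of the others and embryo 16 fell outside it. The difference of -0.19 (adjusted p = 0.603) was 0.06 without embryo 16. Hey1, active in vessels, somites and heart, had the smallest standard error of the members, at 9.66 ± 0.07 in homozygous and 9.60 ± 0.10 in the other embryos. Its difference was 0.06 (SE 0.09, 95% interval -0.15 to 0.26), with 0.09 without embryo 16 and -0.21 under median scaling. Hey2, a repressor of the heart ventricle and arteries that also holds an RBPJ word, was 5.64 ± 0.30 and 5.66 ± 0.18 and differed by -0.02 (95% interval -0.37 to 0.34), and by -0.14 without embryo 16. Hes1, the repressor of most undifferentiated cells, had a probe above background in embryo 16 alone, so no comparison was made.

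**Figure D2:**
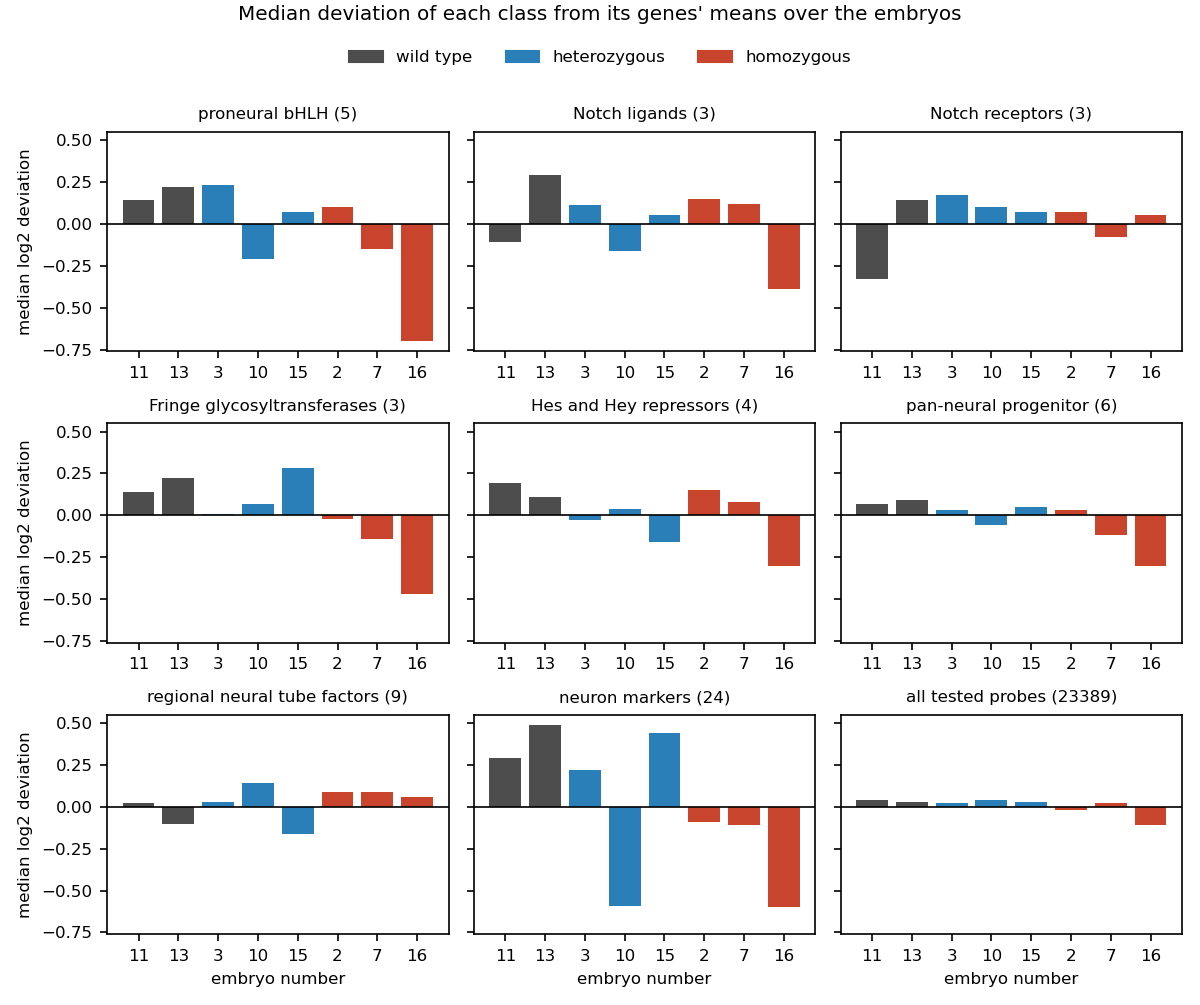
Bars give, for each embryo, the median over a class of the log2 intensity minus each gene's mean, with the number of genes in brackets; neuron markers and all tested probes are shown for comparison. Embryo 16 is at -0.70 for the proneural genes and at 0.06 for the regional factors, and the neuron markers are as low in heterozygous embryo 10 (-0.59) as in embryo 16 (-0.60).

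The general progenitor genes had a median difference of -0.13, with 5 of 6 below 0, and of -0.05 without embryo 16. Fabp7 (brain lipid-binding protein), made by radial glia and a known target of Notch signalling, measured 12.45 and 12.72 in wild type, 12.22, 11.51 and 12.51 in heterozygous and 11.91, 11.98 and 11.48 in homozygous embryos. The homozygous embryos all lay below both wild type embryos, and the heterozygous embryos spanned the range between. Homozygous minus wild type was -0.79 (SE 0.30, 95% interval -1.48 to -0.11, unadjusted p = 0.0288, adjusted p = 0.288), and -0.64 without embryo 16 (unadjusted p = 0.0748). Against all 5 other embryos the difference was -0.49 (adjusted p = 0.319), or -0.34 without embryo 16, and heterozygous embryo 10 was nearly as low as embryo 16.

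The SoxB1 factors Sox1 and Sox2, which hold cells in the progenitor state, differed by less than the spread between embryos. Sox2 measured 9.13 ± 0.13 in homozygous and 9.07 ± 0.18 in the other embryos, a difference of 0.06 (95% interval -0.22 to 0.34), which was 0.11 without embryo 16 and -0.18 under median scaling. Sox1, at 6.46 ± 0.46 in homozygous embryos and with an SD of 0.22 in the others, differed by -0.14, and by 0.09 without embryo 16. The intermediate filament Nes (nestin) was 9.05 ± 0.18 in homozygous and 9.27 ± 0.14 in the other embryos and differed by -0.21 (adjusted p = 0.34), or -0.13 without embryo 16. Vim (vimentin), a filament of progenitors and of mesenchyme, was 13.11 ± 0.12 and 13.22 ± 0.13 and differed by -0.12, or -0.16 without embryo 16. The RNA-binding protein Msi1, which holds back translation in progenitors, was 5.84 ± 0.21 and 5.94 ± 0.12 and differed by -0.09, or 0.03 without embryo 16. None of these 5 had an unadjusted p under 0.05 in any comparison.

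The regional factors split by gene rather than as a class, with 6 differences above 0 and 3 below and a median of 0.05. En2 had the lowest adjusted p of the 33 members. With En1 it encodes the Engrailed proteins of the midbrain and hindbrain border. En2 measured 8.04 and 8.14 in wild type, 8.08, 8.46 and 8.05 in heterozygous and 8.70, 8.45 and 8.59 in homozygous embryos. All homozygous values were above those of 4 of the other embryos, and heterozygous embryo 10 reached the lowest of them. The homozygous mean was 8.58 ± 0.12, against 8.15 ± 0.18, a fold of 1.34 and a difference of 0.42 (SE 0.12, 95% interval 0.15 to 0.70, unadjusted p = 0.00742, adjusted p = 0.158). Without embryo 16 it was again 0.42 (unadjusted p = 0.0186). Over 21 alternative settings the En2 difference stayed between 0.18 and 0.50, and its lowest adjusted p was 0.0963.

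En1, expressed with En2 at the same border and also in limb ectoderm and spinal interneurons, lay the other way. Its values were 7.79 and 7.99 in wild type, 7.81, 7.66 and 8.12 in heterozygous and 7.80, 7.54 and 7.05 in homozygous embryos. Embryo 2 was inside the range of the others, and embryos 7 and 16 were below it. The difference was -0.41 (SE 0.18, unadjusted p = 0.0468, adjusted p = 0.244), and -0.20 without embryo 16. The difference between the Engrailed genes was not tested.

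Otx2 and Gbx2 repress each other at the midbrain and hindbrain border, Otx2 from the front and Gbx2 from behind. Otx2 measured 9.49 and 9.34 in wild type, 9.30, 9.65 and 9.37 in heterozygous and 9.80, 9.62 and 9.70 in homozygous embryos. Heterozygous embryo 10 was the only one of the others to reach the homozygous range. Its difference was 0.28 (SE 0.11, unadjusted p = 0.0296, adjusted p = 0.21), and 0.28 without embryo 16, but 0.01 after median scaling and -0.03 in the authors' deposited values, where all probes had medians of -0.22 and -0.25.

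Gbx2 measured 6.0 and 5.79 in wild type, 6.19, 6.24 and 5.99 in heterozygous and 5.99, 5.62 and 5.37 in homozygous embryos. Homozygous embryo 2 lay at the level of embryos 11 and 15 and above embryo 13, and embryos 7 and 16 were the lowest of all. Its difference was -0.38 (SE 0.16, unadjusted p = 0.041, adjusted p = 0.234), and -0.24 without embryo 16. Against the heterozygous embryos alone it was -0.48 (unadjusted p = 0.0257, adjusted p = 0.403).

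Nkx6-1, a factor of ventral spinal progenitors and of the pancreas, was lowest in wild type. It measured 9.46 and 9.50 there, 9.97, 9.99 and 9.57 in heterozygous and 9.95, 10.09 and 10.08 in homozygous embryos. Both wild type embryos lay under all 6 carriers of the allele, and heterozygous and homozygous embryos overlapped. Homozygous minus wild type was 0.56 (SE 0.15, 95% interval 0.21 to 0.92, unadjusted p = 0.00689, adjusted p = 0.223), and 0.54 without embryo 16. After median scaling it was 0.26 and in the authors' deposited values 0.22. Against all 5 other embryos the Nkx6-1 difference was 0.34 (adjusted p = 0.25) and 0.32 without embryo 16, but 0.07 and 0.04 in those other scalings. Heterozygous minus wild type was 0.36 (unadjusted p = 0.0465, adjusted p = 1.0; unadjusted p = 0.0501 with embryo 16 out of the fit).

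Nkx2-2, a factor of the most ventral progenitors, was 5.71 and 5.67 in wild type, 5.49, 5.35 and 4.82 in heterozygous and 5.56, 5.60 and 5.53 in homozygous embryos. All heterozygous embryos lay below all the others, embryo 15 by the most. Heterozygous minus wild type was -0.47 (SE 0.19, unadjusted p = 0.0439, adjusted p = 1.0), and leaving out embryo 15 made it -0.27. With embryo 16 out of the fit its unadjusted p was 0.051. Homozygous embryos differed from wild type by -0.13, and from all 5 others by 0.16, or 0.17 without embryo 16.

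Emx2, a factor of dorsal forebrain and urogenital tract, measured 8.0 and 8.21 in wild type, 7.96, 7.44 and 7.72 in heterozygous and 7.75, 7.73 and 7.54 in homozygous embryos. The 6 carriers were all below the wild type embryos, and carriers of 1 and 2 copies overlapped. Homozygous minus wild type was -0.42 (SE 0.17, unadjusted p = 0.0414, adjusted p = 0.311), and -0.36 without embryo 16 (unadjusted p = 0.0917). After median scaling it was -0.62. Against all 5 other embryos it was -0.19, or -0.12 without embryo 16. Heterozygous minus wild type was -0.39 (unadjusted p = 0.054).

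Pax6, which marks dorsal forebrain, eye and spinal progenitors, and Irx3, a factor of the intermediate spinal cord, had differences near 0. Pax6 measured 9.64 ± 0.04 in homozygous and 9.60 ± 0.17 in the other embryos, and Irx3 10.20 ± 0.31 and 10.15 ± 0.28. Pax6 differed by 0.04 (95% interval -0.22 to 0.29) and Irx3 by 0.05 (95% interval -0.39 to 0.49), homozygous minus the other embryos. Both were 0.03 without embryo 16 and -0.23 under median scaling. Olig2, of motor neuron progenitors, was above background in heterozygous embryo 10 alone and was not compared.

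**Figure D3:**
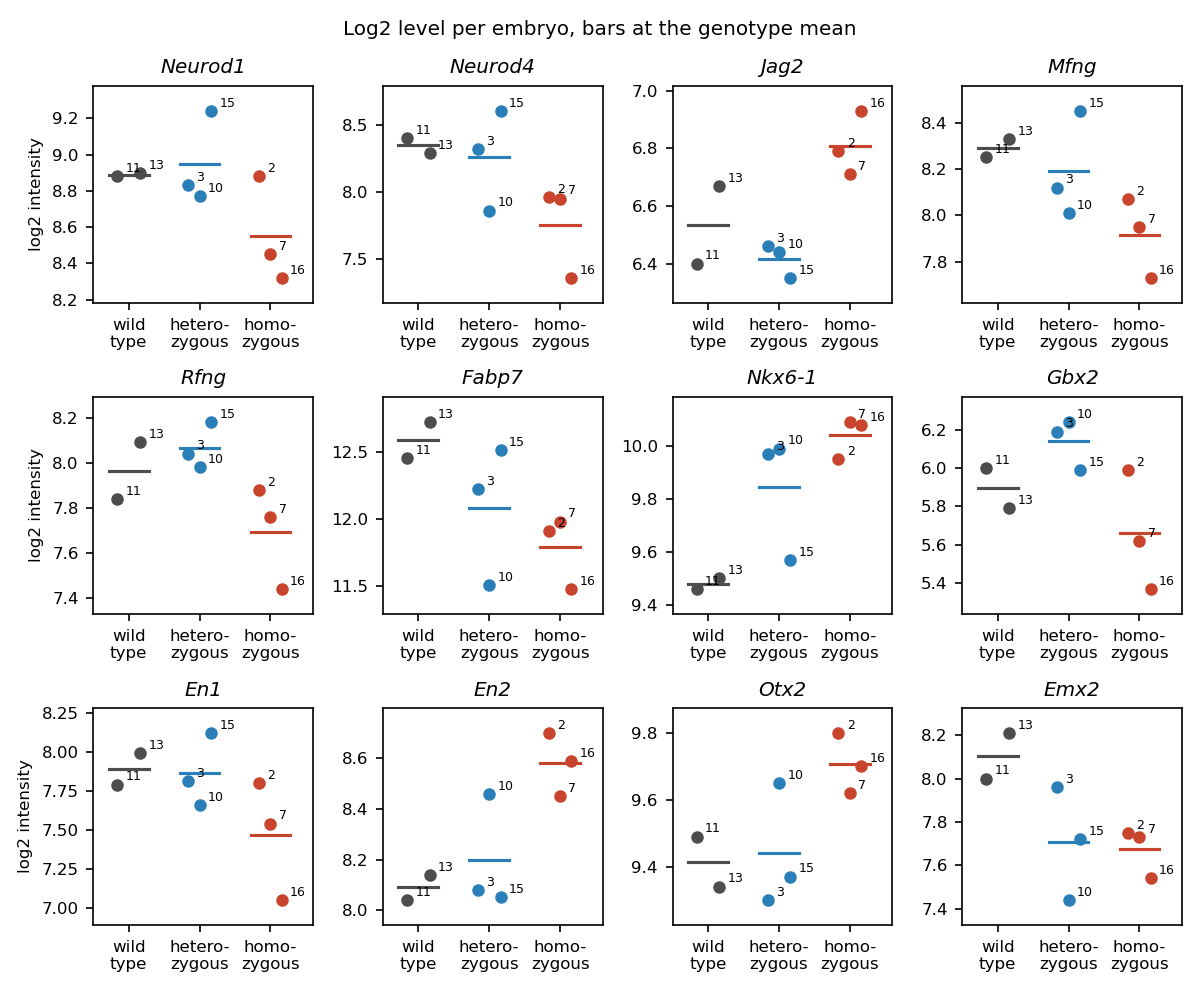
Points are the log2 intensities of single embryos, numbered, and bars the genotype means, for 12 members with an unadjusted p under 0.05 in at least 1 comparison (Nkx2-2 is not drawn); each axis has its own range and does not start at 0. Jag2 is highest in the 3 homozygous embryos, and Nkx6-1 is lowest in the 2 wild type embryos.

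Taken by genotype, the members' median was -0.10 in heterozygous against wild type and -0.06 in homozygous against heterozygous, where all probes had medians of -0.01 and -0.06. In heterozygous against wild type, Nkx6-1 and Nkx2-2 were the members at an unadjusted p under 0.05. In homozygous against wild type, En2 (0.49, adjusted p = 0.259) and Nkx6-1 were the higher members at that level, and Fabp7 and Emx2 the lower, of which the latter pair did not reach it without embryo 16. In homozygous against heterozygous, Jag2 (0.39, adjusted p = 0.388) and En2 (0.38, adjusted p = 0.408) were higher, and Gbx2 and Rfng lower. Without embryo 16 only Jag2 stayed at that level (unadjusted p = 0.0269), and En2 (0.0523), Gbx2 (0.0686) and Rfng (0.0933) did not. Both comparisons use the same 3 homozygous embryos. The standard error of a member's difference, homozygous minus the other embryos, ran from 0.09 to 0.40. The unadjusted 95% interval had a median reach of 0.35 to each side. That reach is not a limit of detection: larger differences also failed the adjusted threshold, such as Neurod4 at -0.54 (adjusted p = 0.197).

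**Figure D4:**
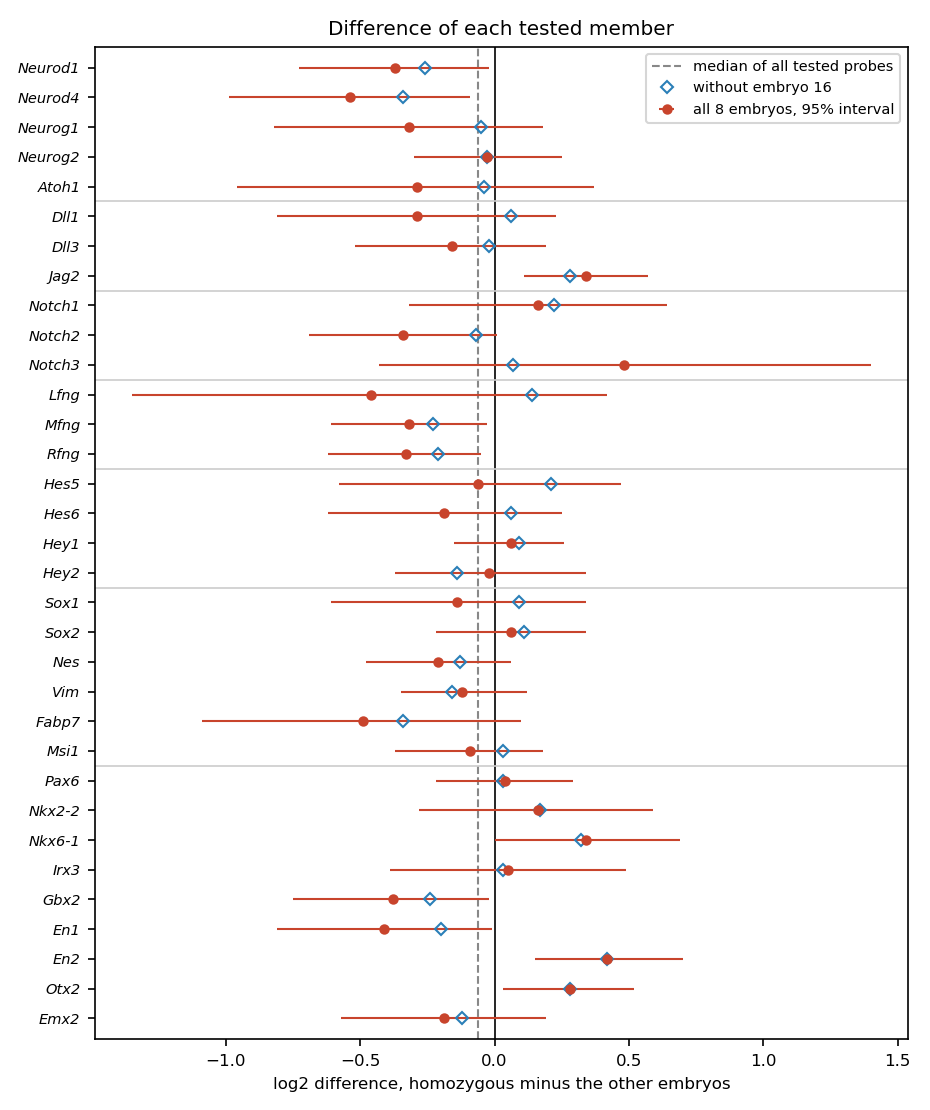
Circles give the log2 difference of each tested member, homozygous minus the 5 other embryos, with 95% intervals from limma; diamonds give it without embryo 16, and the dashed line is the median of all tested probes (-0.06). The interval leaves out 0 for 9 members, En2 (0.42) and Neurod4 (-0.54) being the farthest from 0 on either side among them.

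Other genes of the same pathways were taken from lists of known members. Of 36 tested genes of the rest of the Notch pathway, 19 differences were above 0 and 17 below, with a median of 0.06, and none passed the adjusted threshold. At an unadjusted p under 0.05, 4 were higher and 0 lower, where 6.63% and 13.4% of all tested probes were. Heyl, a Notch target of vascular smooth muscle and somites, had the smallest p of these: 8.36 ± 0.53 in homozygous and 7.59 ± 0.23 in the other embryos, without overlap (difference 0.77, SE 0.23, adjusted p = 0.163, and 0.81 without embryo 16). Dlk1 and Aph1a each differed by 0.26, and by -0.07 and -0.01 under median scaling.

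Of 20 other bHLH and neurogenic genes, 9 were above 0 and 11 below (median -0.06), with 1 each way at an unadjusted p under 0.05 (all probes 6.63% higher and 13.4% lower). Of 16 other progenitor genes, 8 were above 0 and 8 below (median 0.00), with 1 lower at that level. No gene of these lists passed the adjusted threshold. Neurog3, the neurogenin of pancreatic endocrine cells, was 7.84, 5.56 and 6.36 in homozygous embryos 2, 7 and 16 and 4.59 to 5.25 in the others. The groups did not overlap, yet the spread within the homozygous embryos was large (difference 1.62, SE 0.43, adjusted p = 0.141). Leaving out embryo 7 gave 2.13 with an adjusted p of 0.0463, in a fit where 322 of all probes passed, against 25 with all embryos. Leaving out embryo 2 gave 1.0, and the highest adjusted p over the alternative settings was 0.306. Without embryo 16 the Neurog3 difference was 1.73. Ptf1a, a factor of dorsal interneurons, cerebellum and pancreas, differed by -0.61 (SE 0.18, adjusted p = 0.166), and by -0.41 without embryo 16. The bHLH factors Tcf15, of somites, and Tcf4, a widely expressed partner of proneural factors, differed by -0.16 (adjusted p = 0.405) and 0.22 (adjusted p = 0.454, and -0.05 under median scaling). Among the progenitor genes, Sox5 differed by -0.30 (adjusted p = 0.232), Lin28a, a brake on let-7 microRNAs, by 0.73 (adjusted p = 0.297), Pou3f2 by 0.41 (adjusted p = 0.413) and Dclk1 by -0.48 (adjusted p = 0.498).

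Of 36 other patterning genes, 18 were above 0 and 18 below (median 0.01), with 1 higher and 3 lower at an unadjusted p under 0.05 (all probes 6.63% and 13.4%) and 0 past the adjusted threshold. Zic2, a dorsal neural tube factor, was 8.43 ± 0.25 in homozygous and 9.18 ± 0.26 in the other embryos (difference -0.75, SE 0.17, adjusted p = 0.123). Lmx1a, a roof plate factor, was 6.88 ± 0.08 and 7.49 ± 0.18 (difference -0.61, SE 0.12, adjusted p = 0.109). For both, the 3 homozygous embryos lay below all others, and without embryo 16 the differences were -0.83 and -0.65. Pax5, of the midbrain and hindbrain border, differed by -0.58 (adjusted p = 0.192), and by -0.28 without embryo 16. Irx5 differed by 0.26 (adjusted p = 0.208), but by -0.01 in the authors' deposited values.

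Markers of other cell types were read beside the members, since whole embryos differ in their makeup. Of 24 tested neuron markers, 23 were lower in homozygous embryos (median -0.43, and -0.25 without embryo 16), with 4 lower at an unadjusted p under 0.05 and none past the adjusted threshold. Among all tested probes, 60.2% were below 0 and 13.4% were lower at that unadjusted p. Against wild type, all tested probes had medians of -0.07 in homozygous and -0.01 in heterozygous embryos. The neuron markers had medians of -0.73 and -0.42 there. In heterozygous against wild type, 22 of these markers were below 0, where 51.5% of all tested probes were. The summed intensity of the neuron markers was 19512 and 22581 in wild type, 18537, 10927 and 21392 in heterozygous and 15426, 14851 and 11686 in homozygous embryos. Heterozygous embryo 10 thus had the lowest sum, and it also had the lowest Fabp7 after embryo 16 and the lowest Emx2. Of the neuron markers with a probe, Mapt was at background on all arrays. Endothelial markers had 16 of 20 differences above 0 (median 0.16, and 0.06 without embryo 16), and their summed intensity was 8308 to 10563 in homozygous and 7893 to 8520 in the other embryos. Notch1, Notch2, Notch3, Hey1, Hey2, Jag2 and Heyl are also made by vessels, and their differences did not all go 1 way. Homozygous minus the other embryos, Notch1 (0.16), Notch3 (0.48), Hey1 (0.06), Jag2 (0.34) and Heyl (0.77) were above 0. Notch2 (-0.34) and Hey2 (-0.02) were below 0. Somite markers, which bear on Dll1, Dll3 and Lfng, had 8 above 0 and 9 below (median -0.06), cell cycle genes 5 and 18 (median -0.11), neural crest markers 3 and 8 (median -0.10) and cardiomyocyte markers 15 and 4 (median 0.22). What part these markers have in the differences of the members was not tested.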

How the data were processed

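The authors deposited, per the file headers, a scanner intensity per spot for each of 8 one-colour arrays: the mean of a spot less the median of its local background. The deposited value table holds the same values divided by 1 factor per array. Per the labels' protocols, total RNA of snap-frozen embryos was made into biotin-labelled cRNA. The sources used here name no scanner software, settings or genome build.

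Controls were dropped, and a gene spot that the scanner file marks as contaminated, irregular or masked counts as missing. Intensities were quantile normalized with limma 3.58.1 in R 4.3.3, floored at the 5th percentile of the positive values (an intensity of 4.5, 2.17 on the log2 scale computed here from the deposited intensities) and log2 transformed. A probe was tested if 1 genotype or more had it above background on every array (23389 of 34967). Models were fitted with lmFit and eBayes, two-sided: 3 genotype means, and homozygous against the 5 others. Benjamini-Hochberg adjustment ran over the whole set of tested probes (threshold 0.05). The fit was tested on simulated data.

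Probes were named through RefSeq accessions in a gene list of GRCm38.p6, with 1 symbol for 14763 probes and none for 20204. The members and lists were chosen with earlier results of these data known. Values of each embryo are given for members with an unadjusted p under 0.05 in any comparison or without overlap, and for the brightest member of a class without such a member; other pathway genes were named by smallest p, up to 4 per list, and 1 gene so chosen is not reported here. Alternatives were other scalings, background corrections, floors, filters, weights, priors, a Y-linked covariate, marked spots kept, a fit of only the groups compared, each embryo left out in turn, and embryos 10 and 16 left out together. Numbers of embryos, 2 or 3 per genotype, limit the precision.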

Additional observations from a re-analysis of the deposited data

Results flagged for a closer look

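Among the 5 wild type and heterozygous embryos, 4 of 33 members had an embryo far from the other 4. The rule flags about 1 in 20 groups of independent values, but these members share the same arrays and the 5 embryos mix genotypes. The share of all tested probes flagged by the rule was not computed, so no excess is read from the count. Heterozygous embryo 15 was high for Neurod1, at a log2 intensity of 9.24 against 8.77 to 8.90, and low for Hes5, at 8.15 against 8.68 to 8.88. Heterozygous embryo 10 was low for Vim, at 13.0 against 13.23 to 13.31, and high for En2, at 8.46 against 8.04 to 8.14. The value of En2 in embryo 10 is the one that overlaps the homozygous embryos.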

How the results depend on the processing

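No member passed the adjusted threshold in any of the 4 comparisons under any alternative run, including each embryo left out in turn. Calls over all probes, homozygous against the others, ran from 5 to 322 around 25. The members' median difference moved, homozygous against wild type, from -0.21 to -0.42 after median scaling and -0.45 in the deposited table, and homozygous against heterozygous from -0.06 to -0.21 and -0.25. Homozygous against the others it was -0.29 in the deposited table and 0.00 without embryos 10 and 16. Leaving out single embryos gave -0.36 to -0.09, -0.15 to 0.04, -0.26 to 0.03 and, heterozygous against wild type, -0.13 to -0.05. Signs of single genes turned, homozygous against the others, after median scaling (Notch1 -0.17, Hey1 -0.21, Sox2 -0.18, Pax6 -0.23, Irx3 -0.23, Dlk1 -0.07, Aph1a -0.01, Tcf4 -0.05) and in the deposited table (Notch1 -0.20, Hey1 -0.24, Sox2 -0.22, Pax6 -0.26, Irx3 -0.27, Otx2 -0.03, Dlk1 -0.10, Aph1a -0.04, Tcf4 -0.09, Irx5 -0.01). They turned under cyclic loess (Neurog2 0.00, Hey2 0.09, Sox1 0.00, Msi1 0.05), array weights (Hes5 0.10, Sox1 0.02) and without embryos 10 and 16 (Dll1 0.04, Lfng 0.14, Hes5 0.23, Hes6 0.00, Sox1 0.17, Msi1 0.00). With single embryos left out, the ranges that crossed 0 were -0.46 to 0.06 for Dll1, -0.26 to 0.21 for Hes5, -0.34 to 0.06 for Hes6, -0.14 to 0.15 for Hey2, -0.10 to 0.21 for Irx3, -0.82 to 0.14 for Lfng, -0.18 to 0.03 for Msi1, -0.08 to 0.04 for Neurog2, -0.01 to 0.10 for Pax6, -0.38 to 0.09 for Sox1 and -0.01 to 0.13 for Sox2. The cause was not tested. No paired analysis was possible because no embryo number is shared between genotypes. The mean over a gene's probes was not run, since each member has 1 probe. With 1 wild type embryo left, its spread was taken from the other genotypes. All differences of members near background (Lfng, Notch3) are limited by their signal.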
